A study of Mus musculus with 12 samples.

Results

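The plasma membrane calcium extrusion genes encode the proteins that carry calcium out of a cell across its surface membrane. The group was defined by name and covers the sodium/calcium exchangers Slc8a1, Slc8a2 and Slc8a3 (NCX1, NCX2 and NCX3), the potassium-dependent exchangers Slc24a2, Slc24a3 and Slc24a4 (NCKX2, NCKX3 and NCKX4) and the calcium ATPases Atp2b1, Atp2b2, Atp2b3 and Atp2b4 (PMCA1, PMCA2, PMCA3 and PMCA4). These are 10 of the 37991 genes counted, and all 10 were among the 16399 genes with enough reads to be tested. No measured value entered the choice of the genes from the count tables, although earlier results of these data were known when the group was chosen.

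Poly(A) RNA-seq was performed on mouse hippocampus, collected 1 h after passive avoidance (PA) training, a task in which a mouse learns to avoid a chamber where it received a foot shock. 6 libraries carry the label Wildtype and 6 the label Gadd45a-KO. All 12 mice were of the C57BL/6N strain, were 6 to 7 months old, had gone through the same test and came from crosses of heterozygous Gadd45a-deficient parents, so the Wildtype mice were siblings of the Gadd45a-/- mice. The mutation is constitutive and therefore present in every cell type, and a neomycin resistance cassette stands in place of the 5′ exons of Gadd45a while the last exon remains. There was no untrained group, so every value refers to trained animals.

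Each library held between 44594261 and 55540601 reads assigned to genes. Gadd45a itself went against the labels: it was counted at 2.19 to 3.43 CPM (the gene's reads scaled to a library of fixed size, from the TMM-scaled total of reads assigned to genes) in the libraries labelled Wildtype. In those labelled Gadd45a-KO it was counted at 20.5 to 23.1 CPM, with a log2 fold change of 3.06 (SE 0.09). The gene-level count does not show which exons these reads came from, so the groups are given as labels below, and each direction is that of the libraries labelled Gadd45a-KO minus those labelled Wildtype. The share of uniquely aligned reads that fell outside annotated exons was 14.4% to 15.8% under the Wildtype label and 13.03% to 14.3% under the Gadd45a-KO label, without overlap, and its part in the results below was not tested. The hippocampal markers were present in every library, with summed levels of 279 to 410 and 177 to 370.2 CPM for 3 dentate granule cell markers and of 292 to 364 and 188 to 416 CPM for 3 CA1 markers (Wildtype and Gadd45a-KO label, respectively). The 5 thalamic markers summed to 54.6 to 88.9 CPM under the Wildtype label and to 61.2 to 329 CPM under the Gadd45a-KO label, where replicates 3 and 2 were the highest with 329 and 215 CPM. The 4 oligodendrocyte markers summed to 1849 to 2885 and 2377 to 5713 CPM, again with replicate 3 labelled Gadd45a-KO at the top. None of the tested markers of these 4 lists passed 1% FDR in either direction by edgeR, with 2 of the 3 CA1 markers tested.

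A resting neuron keeps its cytosolic calcium far below the level outside, and each action potential or synaptic input lets calcium in that has to be removed. The ATPases bind calcium tightly and export it at the cost of ATP, with calmodulin as their activator, and they set the resting level. The exchangers bind calcium less tightly but turn over fast, using the sodium gradient alone (NCX) or the sodium and potassium gradients together (NCKX). In the hippocampus these proteins shape the calcium signals of spines and terminals after synaptic activity, and mice lacking NCKX2 or NCX2 are known for altered hippocampal plasticity.

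The sequences below are shown because the members within a family are close copies at their working sites, which bears on whether short reads can tell them apart. Each is a stretch of 60 bases of coding sequence read 5′ to 3′ along the gene's own strand from NCBIM37, the mouse build that the submitters' notes name. In the potassium-dependent exchangers the capitals mark the codon of a conserved glutamate of the first alpha repeat, the part of the protein that binds the transported ions. The window of Slc24a2 lies at chr4:86873120-86873179 (minus strand) in 1 coding exon, whereas those of Slc24a3 at chr2:145344177-145344593 and Slc24a4 at chr12:103460292-103460958 (both plus strand) are spliced across an intron.
Slc24a2: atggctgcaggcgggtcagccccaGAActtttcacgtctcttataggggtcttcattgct
Slc24a3: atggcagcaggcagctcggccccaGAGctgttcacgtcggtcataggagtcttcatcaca
Slc24a4: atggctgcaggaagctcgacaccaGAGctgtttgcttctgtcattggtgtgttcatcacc

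In the windows of Atp2b1, Atp2b2 and Atp2b4 the capitals mark the codon of the aspartate that is phosphorylated in each transport cycle. These windows lie within 1 coding exon each, at chr10:98462427-98462486 (plus strand) for Atp2b1, chr6:113739876-113739935 (minus) for Atp2b2 and chr1:135628369-135628428 (minus) for Atp2b4.
Atp2b1: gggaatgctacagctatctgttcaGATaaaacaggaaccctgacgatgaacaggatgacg
Atp2b2: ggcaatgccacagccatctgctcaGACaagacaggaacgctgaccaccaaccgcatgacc
Atp2b4: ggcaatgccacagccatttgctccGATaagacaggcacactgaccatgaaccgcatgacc

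Over these 60 bases Slc24a2 differed from Slc24a3 at 13 positions and from Slc24a4 at 19. Atp2b1 differed from Atp2b2 and from Atp2b4 at 13 positions each, and Atp2b2 from Atp2b4 at 7. Across whole exon sequences, 99.4% to 100% of the 51-base words, the length of the reads, occurred once in the genome for 9 of the members. Atp2b1 was the exception with 93.48% of 6091 words, so a small part of its reads may not have been placed uniquely.

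Per length of exon, Atp2b1 was the most abundant of the extrusion genes and Slc8a3 the least abundant. Levels were compared between genes as RPKM, the CPM divided by the summed length of all annotated exons in kilobases. Among the libraries labelled Wildtype the mean level was 193 ± 16.3 RPKM for Atp2b1 (SD, n = 6), 108 ± 11.3 for Slc8a2, 67.6 ± 7.02 for Slc24a2 and 57.0 ± 4.80 for Slc24a3. Atp2b2 with 45.9 ± 4.24 RPKM and Atp2b3 with 45.7 ± 3.01 RPKM formed the next step. The remaining 4 genes lay far lower, with a mean level of 9.08 ± 1.47 RPKM for Slc8a1, 8.78 ± 0.791 for Slc24a4, 7.47 ± 1.36 for Atp2b4 and 3.25 ± 0.371 for Slc8a3. The annotation of Slc8a1 ends 3 bases after its coding sequence. Reads from any further 3′ sequence are missing from its level, so its place in the order is uncertain. Every family therefore had at least 1 abundant and 1 scarce member in the hippocampus.

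**Figure D1:**
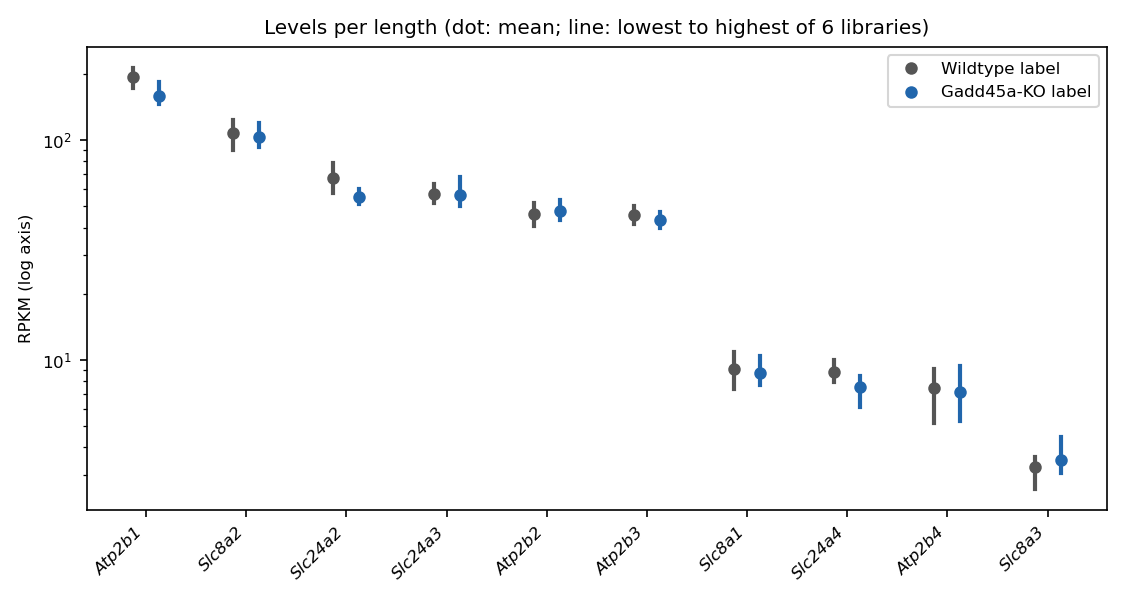
Levels of the 10 calcium extrusion genes per length of exon (RPKM, log axis), ordered by the mean of the 6 libraries labelled Wildtype (grey) beside the 6 labelled Gadd45a-KO (blue); dots are means and lines run from the lowest to the highest library. 6 genes lie above 40 RPKM on average and 4 below 10, and the mean of Atp2b1 is 193 RPKM under the Wildtype label and 159 under the Gadd45a-KO label. The level of Slc8a1 leaves out any 3′ sequence beyond its annotation.

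Neighbours in this order were compared within libraries by exact sign-flip permutation tests, whose smallest two-sided p with 6 libraries is 0.0312. 6 of the 9 neighbouring pairs under the Wildtype label kept the same order in 6 of 6 libraries (exact permutation p = 0.0312 each, 0.0468 after Benjamini-Hochberg adjustment over the 9 pairs). The pairs that did not differ beyond their spread were Atp2b2 and Atp2b3 (exact permutation p = 1.00), Slc8a1 and Slc24a4 (exact permutation p = 0.781, adjusted 0.879) and Slc24a4 and Atp2b4 (exact permutation p = 0.0938, adjusted 0.121). Under the Gadd45a-KO label the order was the same except that Slc24a3, at 56.4 ± 6.16 RPKM, and Slc24a2, at 55.0 ± 3.32 RPKM, changed places, and these did not differ beyond their spread (exact permutation p = 0.688). No neighbouring pair under that label had an adjusted p below 0.0702. Atp2b1 and Slc8a2, Slc8a2 and Slc24a3, Atp2b3 and Slc8a1, and Atp2b4 and Slc8a3 kept their order there in 6 of 6 libraries. Their ranges did not overlap, and each pair had the smallest possible exact permutation p, 0.0312 (adjusted 0.0702). At this floor the adjusted value follows from the number of pairs that reach it. Under either label the pairs were set by the order of means in the libraries tested. With the longest transcript in place of all exons as the length, Atp2b2 ranked 4 and Slc24a3 ranked 5 under the Wildtype label. The means by that length were 88.0 RPKM for Slc24a2, 67.6 for Atp2b2, 64.3 for Slc24a3 and 47.6 for Atp2b3. The near-equal levels of Atp2b2 and Atp2b3 were thus seen with all exons as the length and not with the longest transcript. Neighbouring pairs were not tested with the longest transcript, and the order under the Gadd45a-KO label was not computed with it.

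Slc24a2, Atp2b1 and Slc24a4 had lower mean counts under the Gadd45a-KO label than under the Wildtype label, and the other members differed by less. The question this comparison addresses is whether the transcripts that serve calcium export differ with the Gadd45a genotype shortly after learning. No member was called at 1% FDR, the threshold the study used, by the quasi-likelihood test of edgeR, adjusted over all 16399 genes by the Benjamini-Hochberg method, where 2.63% of tested genes were lower and 0.0305% higher. 3 of the 10 members had an unadjusted p under 0.05, against 13.3% of all tested genes. At 5% FDR 2 members were lower, Slc24a2 and Atp2b1, against 4.43% of all tested genes. The same 2 members were lower at 1% FDR by DESeq2 with its own adjustment, against 3.77% of the genes it tested. The log2 fold change was below 0 for 8 of the 10 members and above 0 for 2, with a median of -0.065 and a range of -0.30 to 0.11, while the median over all tested genes was 0.00. In no member did the libraries of the 2 labels separate completely with the Gadd45a-KO label lower, which 3.12% of all tested genes did.

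**Figure D2:**
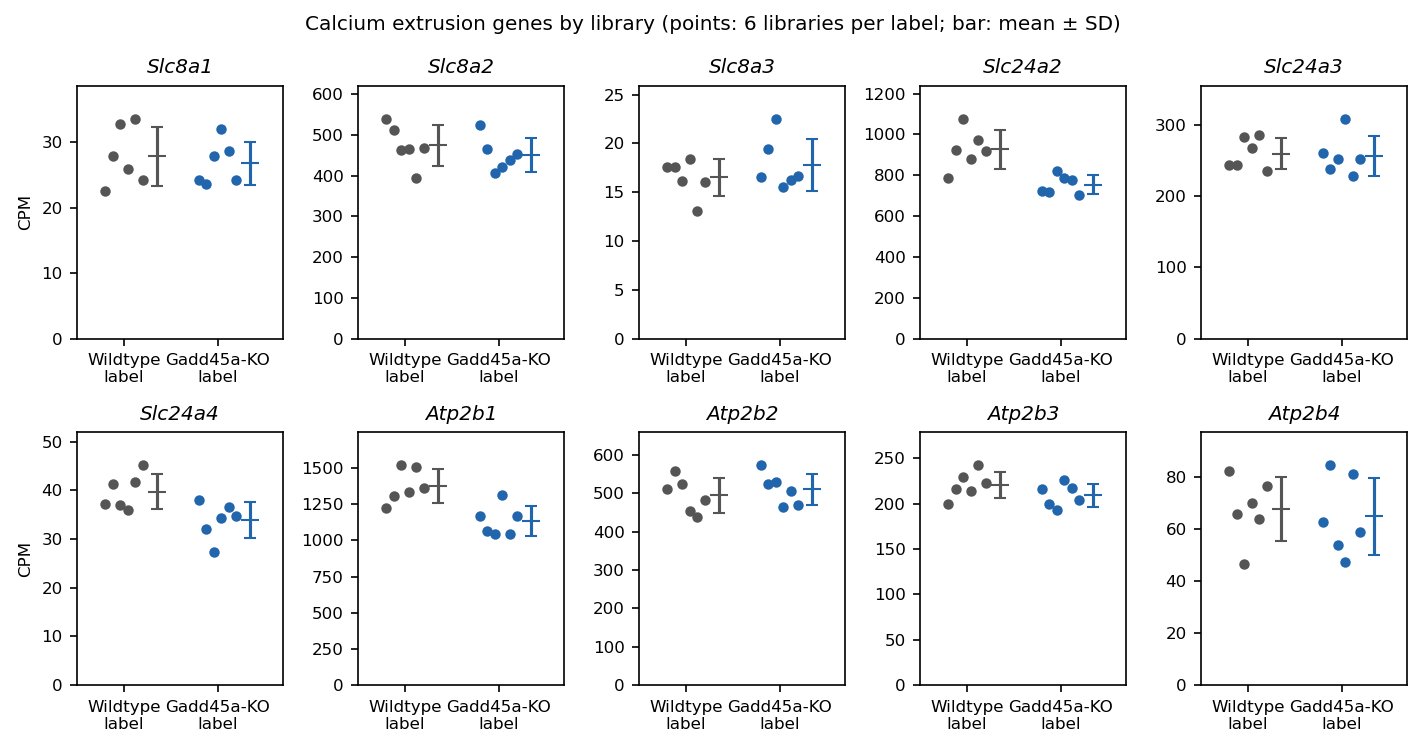
CPM of each calcium extrusion gene in every library (points; replicates 1 to 6 from left to right), with the mean and SD beside them, for the 6 libraries labelled Wildtype (grey) and the 6 labelled Gadd45a-KO (blue); each vertical axis starts at 0. For Slc24a2 and Atp2b1, 5 of the 6 libraries labelled Gadd45a-KO lie below all libraries labelled Wildtype.

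Of the sodium/calcium exchangers, none had an interval of the fold change that left out 0. Slc8a2 (ENSMUSG00000030376, chr7:16715509-16745858) encodes NCX2. It ran from 394 through a median of 467 to 539 CPM under the Wildtype label and from 406 through 445 to 525 CPM under the Gadd45a-KO label. The 2 labels overlapped almost entirely, and replicate 1 was the highest under both. Its log2 fold change was -0.07 (SE 0.07, 95% interval -0.23 to 0.09, adjusted p = 0.784, edgeR).

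Slc8a1 (ENSMUSG00000054640, chr17:81785359-82048947), the exchanger best known from heart muscle, ran from 22.5 through 27.0 to 33.6 CPM under the Wildtype label and from 23.6 through 26.1 to 32.0 CPM under the Gadd45a-KO label. All libraries labelled Gadd45a-KO lay within the range of the others. The log2 fold change was -0.06 (SE 0.11, 95% interval -0.29 to 0.17, adjusted p = 0.901, edgeR), and it turned to 0.01 without Wildtype replicate 5. The annotation of Slc8a1 holds 3068 bases of exon and ends 3 bases after the coding sequence, so reads from any further 3′ sequence are not in its count. It is also the only member with an exon opposite an exon of another gene, Gm11096 on the other strand, which had at most 2 reads in a library, and the counting used strand.

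Slc8a3 (ENSMUSG00000079055, chr12:82298902-82434167), the third exchanger and one expressed mainly in brain and skeletal muscle, was the scarcest member. It ran from 13.1 through 16.8 to 18.4 CPM under the Wildtype label and from 15.5 through 16.6 to 22.5 CPM under the Gadd45a-KO label. The medians were alike, and replicates 3 and 2 labelled Gadd45a-KO, the same libraries that were highest in thalamic markers, lay above all libraries labelled Wildtype. Its log2 fold change was the highest of the members at 0.11 (SE 0.10, 95% interval -0.10 to 0.32, adjusted p = 0.724, edgeR), and without those 2 libraries it was -0.02.

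Among the potassium-dependent exchangers all 3 fold changes were below 0, with the largest for Slc24a2. Slc24a2 (ENSMUSG00000037996, chr4:86629028-86876381, minus strand) encodes NCKX2, the potassium-dependent exchanger of neuronal terminals and dendrites whose ion-binding site is printed above. It ran from 786 through a median of 921 to 1076 CPM under the Wildtype label and from 704 through 749 to 819 CPM under the Gadd45a-KO label. The highest library labelled Gadd45a-KO, replicate 3, and the lowest labelled Wildtype, replicate 1, crossed, and 5 of the 6 libraries labelled Gadd45a-KO lay below all 6 labelled Wildtype. The means were 927 ± 96.2 and 754 ± 45.5 CPM (SD, n = 6 each), a log2 fold change of -0.30 (SE 0.07, 95% interval -0.43 to -0.16, adjusted p = 0.0122, edgeR's quasi-likelihood test). The two-sided exact permutation test on log2 CPM gave p = 0.00433, where 6 against 6 libraries allow 0.00216 at the least.

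The size and the call of Slc24a2 moved with the processing. The transcript length offset removes each library's trend of counts with the summed length of all annotated exons of a gene. With this offset the log2 fold change was -0.18 (SE 0.055, adjusted p = 0.104, edgeR). Without Wildtype replicate 1, the lowest library of that label, it was -0.33 and passed 1% FDR (adjusted p = 0.00295, edgeR). This was the only 1 of 12 single omissions that passed, and their adjusted p ran up to 0.0473 (edgeR). With all libraries, Slc24a2 passed by DESeq2 (log2 fold change -0.29, adjusted p = 0.000653) and without a filter on low counts (adjusted p = 0.00849, edgeR). Slc24a2 has the longest exon sequence of the members, 13703 bases, of which up to 8223 are annotated 3′ untranslated region.

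Slc24a4 (ENSMUSG00000041771, chr12:103366943-103505301) encodes NCKX4, known for roles in olfactory adaptation, tooth enamel and appetite control. It ran from 36.0 through 39.2 to 45.1 CPM under the Wildtype label and from 27.4 through 34.5 to 38.1 CPM under the Gadd45a-KO label. 4 of the 6 libraries labelled Gadd45a-KO lay below all others, and replicates 1 and 5 lay within the Wildtype range. The means were 39.7 ± 3.58 and 33.9 ± 3.78 CPM (SD, n = 6 each), a log2 fold change of -0.23 (SE 0.08, 95% interval -0.39 to -0.07) that did not pass the threshold (adjusted p = 0.142, edgeR). The exact permutation test gave p = 0.0173. Replicate 3 labelled Gadd45a-KO was the lowest library in Slc24a4 and the highest in thalamic and oligodendrocyte markers, and without replicates 2 and 3 of that label the log2 fold change was -0.14 (adjusted p = 0.479, edgeR).

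Slc24a3 (ENSMUSG00000063873, chr2:144993490-145467902), whose product NCKX3 is found in brain and in smooth muscle, spans 474.4 kb, the longest gene of the group. It ran from 236 through 256 to 287 CPM under the Wildtype label and from 229 through 253 to 309 CPM under the Gadd45a-KO label. The ranges lay on top of each other, with means of 260.3 ± 21.9 and 257 ± 28.1 CPM. The log2 fold change was -0.02 (SE 0.07, 95% interval -0.17 to 0.13, adjusted p = 0.957, edgeR), and its sign turned when any of 4 single libraries was left out (highest 0.02).

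As shares of the summed NCKX level in RPKM, Slc24a2 made up 50.6% ± 1.88 under the Wildtype label and 46.4% ± 2.56 under the Gadd45a-KO label (SD, n = 6 each). Slc24a3 made up 42.8% ± 2.04 and 47.3% ± 2.55, and Slc24a4 6.62% ± 0.787 and 6.32% ± 0.830. The most abundant NCKX transcript per length was thus Slc24a2 under the Wildtype label, while under the Gadd45a-KO label the shares of Slc24a2 (43.2% to 49.3%) and Slc24a3 (43.7% to 51.1%) overlapped. These shares rest on the summed length of all exons. With the longest transcript as the length, the Wildtype means were 88.0 RPKM for Slc24a2 and 64.3 for Slc24a3. Shares were not computed with that length. The summed NCKX level was 133 ± 10.7 and 119 ± 7.54 RPKM, and the summed NCX level 121 ± 10.6 and 115 ± 8.72 RPKM. Within NCX the shares hardly moved, with Slc8a2 at 89.7% ± 1.76 and 89.3% ± 1.63. These NCX shares leave out any reads of Slc8a1 from 3′ sequence beyond its annotation.

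Among the calcium ATPases Atp2b1 was lower on average under the Gadd45a-KO label, while the fold changes of the other 3 were within 0.08 of 0 on the log2 scale. Atp2b1 (ENSMUSG00000019943, chr10:98377786-98488777) encodes PMCA1, the pump present in nearly all cell types and the member with the most reads. It ran from 1227 through a median of 1348 to 1519 CPM under the Wildtype label and from 1042 through 1114 to 1312 CPM under the Gadd45a-KO label. A single library labelled Gadd45a-KO, replicate 4 with 1312 CPM, reached into the Wildtype range, above replicates 1 (1227 CPM) and 2 (1305 CPM) labelled Wildtype, and the other 5 lay below all 6. The means were 1377 ± 116 and 1133 ± 105 CPM (SD, n = 6 each), a log2 fold change of -0.28 (SE 0.07, 95% interval -0.42 to -0.14, adjusted p = 0.0217, edgeR's quasi-likelihood test). The two-sided exact permutation test gave p = 0.00649.

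The call of Atp2b1 also rested on the settings. Leaving out replicate 4 labelled Gadd45a-KO, the library that reached into the Wildtype range, gave -0.32 and a pass at 1% FDR (adjusted p = 0.00682, edgeR). It was the only 1 of 12 single omissions that passed. The highest adjusted p among them, 0.0786 without Wildtype replicate 5 (edgeR), did not pass 5% FDR either. DESeq2 gave -0.28 (adjusted p = 0.00244). With the transcript length offset the log2 fold change was -0.24 (adjusted p = 0.0869, edgeR), and without replicates 2 and 3 labelled Gadd45a-KO it was -0.23 (adjusted p = 0.145, edgeR). Replicate 4 was also the highest library of its label in CA1 markers, with 416 CPM, and the lowest in dentate granule cell markers, with 177 CPM. In whole hippocampus fewer cells of a type and less RNA per cell cannot be told apart, for Atp2b1 as for every other member.

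Atp2b2 (ENSMUSG00000030302, chr6:113695663-113992607) encodes PMCA2, the fast pump of Purkinje neurons and inner ear hair cells. It ran from 439 through 497 to 559 CPM under the Wildtype label and from 464 through 515 to 573 CPM under the Gadd45a-KO label. All but 1 of the libraries labelled Gadd45a-KO lay within the Wildtype range. The log2 fold change was 0.05 (SE 0.07, 95% interval -0.09 to 0.18, adjusted p = 0.854, edgeR), and with the transcript length offset it was 0.13. Atp2b2 is the only member on the chromosome of Gadd45a, 46.7 Mb away.

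Atp2b3 (ENSMUSG00000031376, chrX:70748425-70816344), the X-linked gene of the mainly neuronal PMCA3, had the smallest SE of the members. It ran from 199 through 219 to 242 CPM under the Wildtype label and from 193 through 209.9 to 226 CPM under the Gadd45a-KO label. 2 libraries labelled Gadd45a-KO were below all labelled Wildtype, and the rest lay among them. The log2 fold change was -0.08 (SE 0.05, 95% interval -0.18 to 0.03, adjusted p = 0.575, edgeR).

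Atp2b4 (ENSMUSG00000026463, chr1:135599255-135697618) encodes PMCA4, the pump of red blood cells and sperm that is also found in brain. It ran from 46.6 through 67.7 to 82.2 CPM under the Wildtype label and from 47.3 through 60.6 to 84.3 CPM under the Gadd45a-KO label. The spread within each label exceeded the difference between them, and the log2 fold change was -0.06 (SE 0.16, 95% interval -0.41 to 0.29, adjusted p = 0.933, edgeR), with 0.002 under the length offset. Atp2b4 had the largest SE of the 10 members.

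Atp2b1 made up 65.9% ± 1.96 of the summed PMCA level in RPKM under the Wildtype label and 61.7% ± 2.57 under the Gadd45a-KO label. Atp2b2 made up 15.8% ± 1.82 and 18.6% ± 1.91, Atp2b3 15.7% ± 0.401 and 16.9% ± 0.650, and Atp2b4 2.59% ± 0.591 and 2.82% ± 0.735. The share of Atp2b3 did not overlap between the labels (15.1% to 16.2% and 16.6% to 18.2%), although its CPM did. The level of Atp2b3 itself was not higher under the Gadd45a-KO label, with 45.7 ± 3.01 and 43.4 ± 2.62 RPKM, and the summed level it is divided by was lower. The summed PMCA level was 292 ± 17.0 and 257 ± 14.5 RPKM, with 5 of 6 libraries labelled Gadd45a-KO below all labelled Wildtype. These sums and shares rest on the summed length of all exons, describe genes chosen with earlier results known and were not tested.

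**Figure D3:**
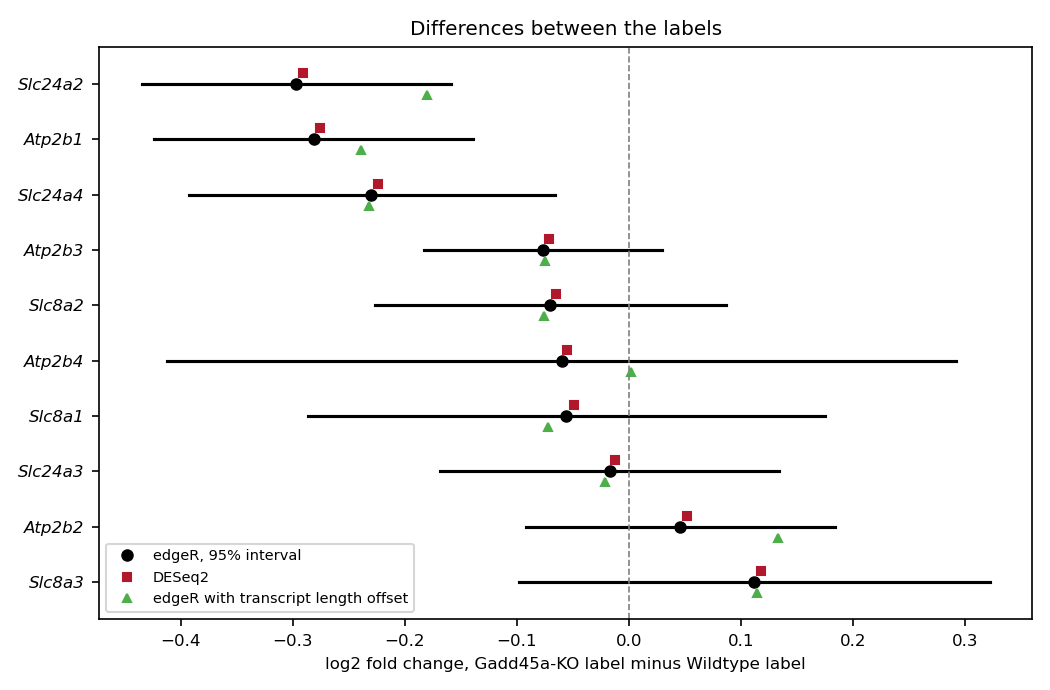
Log2 fold change of each calcium extrusion gene, Gadd45a-KO label minus Wildtype label (6 libraries each), by edgeR with its 95% interval (black dots and lines), by DESeq2 (red squares) and by edgeR with a transcript length offset (green triangles). The edgeR intervals of Slc24a2, Atp2b1 and Slc24a4 lie below 0 and those of the other 7 include 0; the length offset moves Slc24a2 from -0.30 to -0.18.

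The genes that work with the extrusion proteins or are near relatives of the members were read from 5 lists of 28 genes, of which 27 could be tested. None was lower or higher at 1% FDR by edgeR (2.63% and 0.0305% of all tested genes) and none by DESeq2 (3.77% lower), and 3 had an unadjusted p under 0.05 (13.3% of all tested genes), so these counts do not stand apart from the background. 9 of the 27 had a log2 fold change below 0 and 18 above, with a median of 0.02. Where a gene is named for its list it is the one with the highest mean CPM, unless said otherwise, Slc8b1 being listed under its older name Slc24a6 and Slc24a1 being too low to test.

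The list of pump subunits and activators had the narrowest range of the 5 lists, with log2 fold changes of -0.05 to 0.03 over 5 genes. Nptn, named here after its values were seen, encodes neuroplastin, an obligatory partner of the pumps in the membrane. It was counted at 658 ± 24.4 CPM under the Wildtype label and 659 ± 17.9 CPM under the Gadd45a-KO label (SD, n = 6 each).

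The sodium pump, which maintains the gradient that the exchangers use, had a median log2 fold change of 0.04 over its 6 genes, with a range of -0.03 to 0.15. Among the tested near relatives, which are transporters of other membranes, the median was 0.17 over 7 genes, with 2 below 0 and 5 above. That median was the value of Atp2c2 (SE 0.21), a gene at 1.81 ± 0.499 CPM under the Wildtype label. The more abundant Atp2c1 was at 252 ± 12.7 and 236 ± 5.63 CPM (log2 fold change -0.09, SE 0.04, adjusted p = 0.25, edgeR). Atp2c2 and Atp2c1 are named here after their values were seen. Atp2a2, which encodes the SERCA pump of the endoplasmic reticulum, was counted at 962 ± 61.6 and 965 ± 61.9 CPM (log2 fold change 0.01, adjusted p = 0.984, edgeR). In the same list Atp2a1 stood apart, a gene named here after its values were seen, at 0.300 ± 0.0686 and 1.07 ± 1.26 CPM, with a log2 fold change of 1.83 (SE 0.71, adjusted p = 0.252, edgeR) and its highest value, 3.28 CPM, in replicate 3 labelled Gadd45a-KO.

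The PDZ partner genes had a median of -0.01 over 4 genes. Dlg4, which encodes the postsynaptic scaffold PSD-95 that binds pump C termini, was at 798 ± 14.2 and 788 ± 58.1 CPM (adjusted p = 0.925, edgeR). The cytosolic calcium-binding proteins had a median of 0.02 over 5 genes, with Hpca, the gene of the neuronal calcium sensor hippocalcin, at 1965 ± 223 and 1942 ± 187 CPM (adjusted p = 0.961, edgeR). Both genes lay within the spread between replicates.

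**Figure D4:**
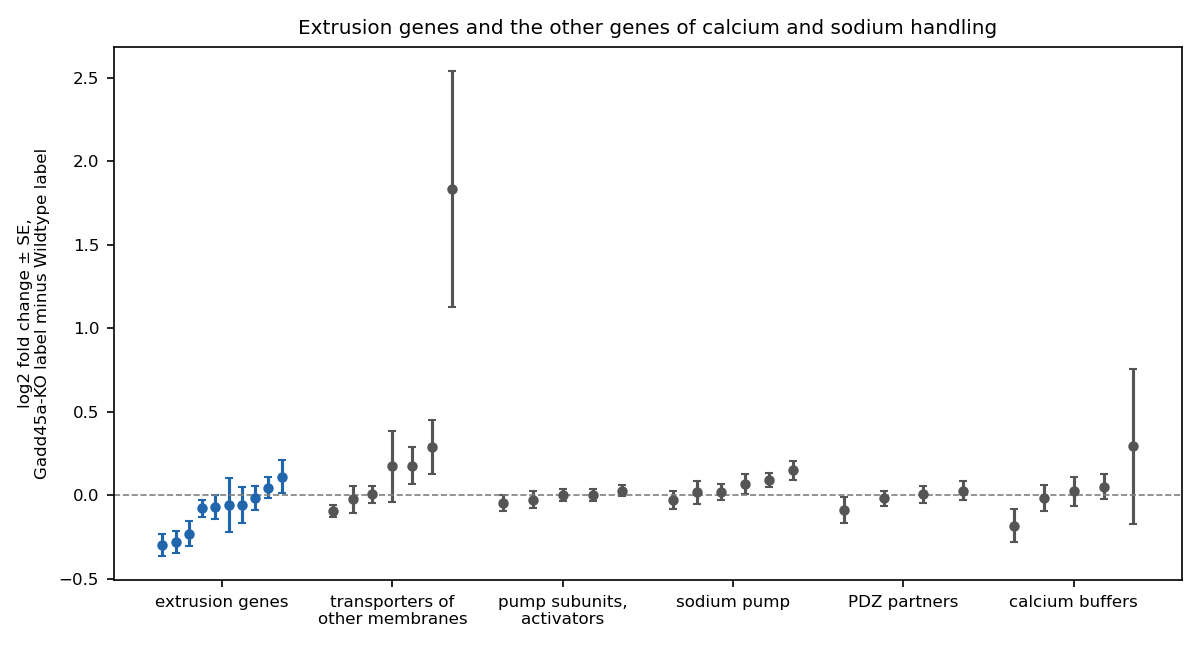
Log2 fold change with its SE, Gadd45a-KO label minus Wildtype label, of the 10 calcium extrusion genes (blue) and of 27 tested genes in 5 lists of related genes (grey), ordered by value within each list. The lowest extrusion gene is at -0.30 (Slc24a2), and the highest grey point is Atp2a1 at 1.83 with an SE of 0.71.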

How the data were processed

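The authors prepared stranded poly(A) libraries, aligned the reads with TopHat (1.4.1) to NCBIM37 (mm9) and counted them per gene and strand with HTSeq (0.5.4p3), per the submitters' processing notes. They deposited raw read counts per gene, 1 table for each of the 12 libraries. The lines for reads without a gene, ambiguous reads and non-unique alignments were left out of library sizes (reads without a gene were 13.03% to 15.8%). The extrusion genes and the lists of related genes were chosen with earlier results of these data known.

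Counts were filtered with filterByExpr, scaled by TMM and tested on all genes with edgeR 4.0.16 in R 4.3.3 (robust quasi-likelihood fit, Benjamini-Hochberg adjustment, 1% FDR), 6 libraries labelled Gadd45a-KO against 6 labelled Wildtype. Equal replicate numbers were not paired, since no source says what they share. Named genes were all members, Gadd45a, any listed gene at 1% FDR and the gene with the highest mean CPM in each list, of which some are not reported here. Coding windows are shown for 6 members only. Single members were also tested by exact permutation of log2 CPM (prior count 2, scipy 1.17.1, Python 3.11.15). CPM used TMM-scaled library sizes. RPKM divided CPM by the exon length in the GENCODE annotation of NCBIM37, in which 37205 of 37991 gene IDs were found and whose release is older than that of the counts.

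Alternatives were DESeq2 1.42.0, other scalings, filters and prior counts, the transcript length offset, a replicate block and 5% FDR. Further ones were the length of the longest transcript for RPKM, and leaving out each library. The offset was fitted to the summed exon length of each gene (spline with 5 df). Leaving out the 2 libraries highest in thalamic markers was added after seeing the data, as were the family sums and shares. The fits were tested on simulated counts. Where a trend with summed exon length but no changed gene was simulated, the edgeR fit without the offset made false calls, which the offset removed. The fit without the offset is the one used for the main results. The simulated trend followed the same length that the offset fits, with a slope not taken from these data, so its removal was built in. What the offset does to true changes that follow length was not tested. Each library came from a separate mouse, so p-values rest on the spread between mice.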

Additional observations from a re-analysis of the deposited data

How the results depend on the processing

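No member was higher, and no partner gene was called in either direction, under any alternative tried. The number of members lower at 1% FDR, 0 of 10, became 2 by DESeq2, 2 at 5% FDR, 1 without a filter on low counts and 0 to 1 when single libraries were left out. Over all tested genes, 431 lower and 5 higher became 661 and 19 by DESeq2, 726 and 23 at 5% FDR, 274 and 10 with the length offset, 196 and 2 without replicates 2 and 3 labelled Gadd45a-KO, and 244 to 472 and 2 to 4 when single libraries were left out. Slc24a2 and Atp2b1 stayed below 0 under every alternative, with adjusted p from 0.000653 to 0.104 and from 0.00244 to 0.145. Signs that turned belonged to members whose main interval included 0, among them Slc8a3, the member with the highest log2 fold change. Atp2b4 was 0.002 with the length offset, and Slc8a3 was -0.022 and Slc24a3 0.015 without the 2 libraries named above. Leaving out single libraries gave -0.104 to 0.013 for Slc8a1, -0.069 to 0.023 for Slc24a3 and -0.142 to 0.023 for Atp2b4. The cause of these shifts was not tested.

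Equal replicate numbers were not treated as pairs, since no source says what they share. The correlation of deviations from the label means was over 0.1 in 5 of the 6 same-numbered pairs but not in all (-0.08 to 0.26, mean 0.14). The mean for different numbers, -0.0279, is no separate baseline. Deviations cancel within each label, so it nearly follows from the mean of the same-numbered pairs. 1 of 6 libraries correlated best with its own number. A replicate block gave 1 member (Slc24a2, log2 fold change -0.29, adjusted p = 0.00269, edgeR) and left Atp2b1 at -0.28 (adjusted p = 0.0603, edgeR). Over all genes the block gave 512 lower and 4 higher, and the block with the length offset gave 324 lower and 12 higher. The block with the offset called no member at 1% FDR, and Slc24a2 was at -0.18 (adjusted p = 0.0278, edgeR). Every member had at least 691 reads in each library.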
